A study of Mus musculus with 474 samples.

Results

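The most and the least Apoe-expressing first divisions of mouse haematopoietic stem cells (HSCs) were compared, 64 Apoe-high and 64 Apoe-low divisions out of 203 in 9 culture experiments. A division entered when both daughters had been sequenced and the deposited metadata listed 1 daughter with more and 1 with fewer lysosomes than its sister. Apoe was expressed as CPM, counts scaled to the cell's total on genes with spike-ins left out, and divisions were ranked within their experiment by the daughters' mean log2(CPM + 1). The upper tertile of each experiment is called Apoe-high, the lower tertile Apoe-low, and the 75 divisions between them the middle tertile. An upper or lower tertile held 3 to 12 divisions. Every cell belonged to a single group in the labels: a daughter of a bone marrow HSC of wild type male C57BL/6JRj mice aged 12 to 19 weeks, with no treatment named. Division of the parent HSC was followed in culture under a microscope. Each daughter was then taken out with a micromanipulator and read with Smart-seq2, a plate method that covers transcripts along their length without molecular identifiers. A cell's total on genes lay between 76735 and 2444858 counts (median 846198). The number of mice behind an experiment is not given in the labels, so p-values measure the spread between the 9 experiments.

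Apolipoprotein E, the product of Apoe, is a secreted protein of lipoprotein particles. It takes up cholesterol and phospholipid handed out by the transporters ABCA1 and ABCG1, and lipoprotein receptors take the particles into cells. Macrophages, liver and astrocytes are its best known sources. In bone marrow, ApoE is known for supporting cholesterol efflux from haematopoietic stem and progenitor cells and for restraining their proliferation under hypercholesterolaemia.

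Apoe (ENSMUSG00000002985, GRCm38 chromosome 7, 19696109 to 19699188, minus strand) was detected in most divisions, and its level spread widely between them. The ranking used these values, so they are described without a test. Summed over the cells of a tertile, Apoe stood at 238 to 863 CPM (median 562) across the 9 experiments in Apoe-high divisions and at 5.78 to 67.7 CPM (median 22.5) in Apoe-low divisions. The tertile means were 573 ± 199.6 CPM and 27.0 ± 18.9 CPM (SD, n = 9 experiments), and that of the middle tertile was 147 CPM. In single divisions, with both daughters pooled, the level ran from 61.1 to 1771 CPM among Apoe-high and from 0 to 191 CPM among Apoe-low divisions. The ranges overlapped across experiments, since divisions were ranked within each. Both daughters had an Apoe count in 64 of 64 Apoe-high and in 75 of 75 middle divisions. Among Apoe-low divisions both had one in 37 of 64, 1 daughter had one in 22, and neither had one in 5. Sisters resembled each other in Apoe. After centring on the experiment, Pearson's r between the daughters was 0.690 over 203 divisions, a description over pairs that share an experiment, a plate and a parent cell. The tertiles were cut from a continuous range: at the upper border the gap between the lowest Apoe-high and the highest middle division was 0.03 to 1.32 on the log2 scale, and at the lower border 0.03 to 0.89, depending on the experiment.

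**Figure D1:**
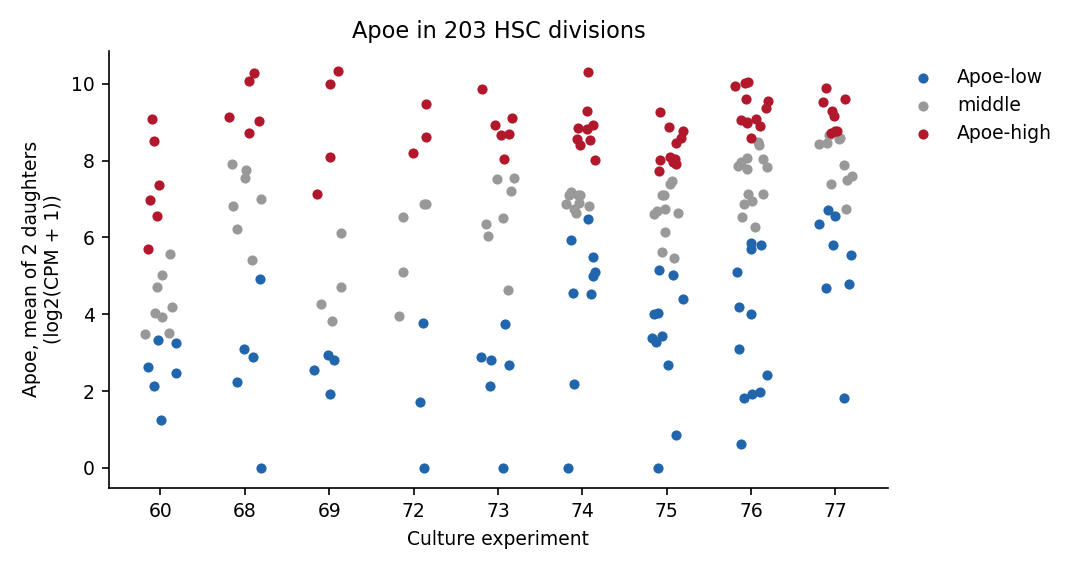
Apoe level of each of 203 HSC divisions (y axis, mean log2(CPM + 1) of both daughters) in 9 culture experiments (x axis, experiment number), with 64 Apoe-high divisions in red, 75 middle divisions in grey and 64 Apoe-low divisions in blue. The tertiles were set within each experiment, and 5 Apoe-low divisions lie at 0 because neither daughter had a count.

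Across all other genes, Apoe-high divisions had lower mitotic and DNA replication transcripts and higher transcripts of HSC regulators and of lysosomal proteins. Counts were summed per experiment and tertile and compared with edgeR's quasi-likelihood test, the experiment as block. Of 11911 genes tested, 1538 passed an adjusted p of 0.05, 719 higher and 819 lower in Apoe-high divisions. That is a background of 12.9% called, 6.04% higher and 6.88% lower, and 3586 genes (30.1%) had an unadjusted p under 0.05. The median difference over all genes tested was -0.0025 on the log2 scale, and 304 of the higher and 233 of the lower genes differed by more than 2-fold. The split between directions depended on the scale: limma on mean log2(CPM + 1) gave 761 higher and 1375 lower genes. The number called was also sensitive to single experiments, falling to 863 without experiment 76, 978 without 77, 995 without 74 and 1011 without 68, and reaching 1597 without experiment 60. Of the 67 genes past the threshold that the naming rule picked, 52 stayed past it whichever experiment was left out. The rule picks in part by p over these same experiments.

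Total counts did not differ beyond the spread between experiments. Mean log2 total counts were 19.52 ± 0.40 in Apoe-high and 19.61 ± 0.46 in Apoe-low divisions (SD, n = 9 experiments), a difference of -0.09 with an exact sign-flip permutation p of 0.465, two-sided. Apoe-high divisions had fewer detected genes, 9431 ± 287 against 9821 ± 557, and this was so in 7 of 9 experiments. The exact permutation p was 0.0234, or 0.0938 after Benjamini-Hochberg adjustment over 4 library measures, so it did not pass. The spike-in share of counts was 0.850% ± 1.51 against 0.322% ± 0.393, higher in Apoe-high divisions in 8 of 9 experiments (adjusted exact p = 0.406). It passed without experiment 60 (adjusted exact p = 0.0312), and without experiment 73 the difference was 0.079 percentage points. The mitochondrial share was 1.95% ± 0.479 against 1.79% ± 0.260 (adjusted exact p = 0.465). The part of RNA content in the results was not tested.

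Mitotic transcripts were lower in Apoe-high divisions, and their list held more lower genes than any other list. Of 53 genes on a G2/M list, 47 fell in Apoe-high divisions and 0 rose, beside 6.88% lower and 6.04% higher over all genes. The list's median difference was -2.38 on the log2 scale against -0.0025 over all genes. Without experiment 76 the number that fell was 31. Cdc20, the activator of the anaphase-promoting complex, stood at 6.83 to 112 CPM (median 15.9) in Apoe-high and at 78.4 to 319.8 CPM (median 218) in Apoe-low divisions. It was lower in 9 of 9 experiments, although the extremes of the groups overlapped. The difference was -3.0 ± 0.41 (SE) on the log2 scale, with an edgeR adjusted p of 0.00207. Cks2, a small subunit that binds cyclin-dependent kinases, stood at 10.1 to 38.0 CPM (median 11.5) against 38.4 to 92.1 CPM (median 64.8). The groups did not overlap, which was so for 58 of the 11911 genes (0.487%). Its difference was -1.93 ± 0.23 (edgeR adjusted p = 0.00125). Kpna2, an importin that carries cargo into the nucleus, was at 50.3 ± 35.3 CPM against 183 ± 54.5 CPM, a difference of -2.06 ± 0.26 (edgeR adjusted p = 0.00165). The mitotic kinase gene Plk1 had a count in 33.6% of cells of Apoe-high and in 78.1% of cells of Apoe-low divisions. Its difference of -3.99 ± 1.01 passed (edgeR adjusted p = 0.024) but was lost, at adjusted p of 0.0563 to 0.0628, without experiment 74 or 76. Other mitotic genes that fell included the cyclin gene Ccnb1 (-3.03), its kinase partner Cdk1 (-2.04), the proliferation marker Mki67 (-2.32) and the centromeric histone gene Cenpa (-3.04).

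Genes of DNA replication were lower by less. Of 44 tested on a G1/S list, 23 fell and 0 rose, beside 6.88% lower and 6.04% higher over all genes. The median was -0.48, and limma put 39 lower. Leaving out single experiments gave 7 to 24 lower genes, with 12 or fewer without experiment 68, 72, 74, 76 or 77. Nasp, a chaperone of histones, was at 119 ± 27.4 CPM in Apoe-high and 181 ± 28.0 CPM in Apoe-low divisions, a difference of -0.66 ± 0.11 (edgeR adjusted p = 0.00431). The helicase gene Blm differed by -1.32 ± 0.22 and the sliding clamp gene Pcna by -0.48 ± 0.13, the latter lost without experiment 72, 74, 76 or 77 (adjusted p of 0.0561 to 0.0772). Rad50, part of the complex that senses DNA double-strand breaks, ranged over 61.5 to 134 CPM (median 99.0) against 136 to 208 CPM (median 144). Those groups did not overlap either, and the difference was -0.73 ± 0.10 (edgeR adjusted p = 0.00218). Lmnb2, which encodes a nuclear lamin, fell by 1.01 ± 0.11 on the log2 scale and was lower in 9 of 9 experiments. Cdk6, the kinase that carries HSCs out of quiescence with D cyclins, stood at 269 to 554 CPM (median 356) in Apoe-high and 519.6 to 1383 CPM (median 672) in Apoe-low divisions. It was lower in 9 of 9 experiments, with overlap between experiments, and the difference was -1.05 ± 0.13 (edgeR adjusted p = 0.00149).

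The same gradient was visible division by division. A G2/M score, the mean log2(CPM + 1) over the G2/M list averaged over both daughters, was 3.44 ± 1.22 in Apoe-high and 6.38 ± 0.99 in Apoe-low divisions (SD over 9 experiments), with 5.53 in the middle. It was lower in Apoe-high divisions in 9 of 9 experiments. The scores ran from 1.41 to 8.28, and divisions lay close to the border used next on both sides, at 3.97 and 4.06. Below a score of 4, a border chosen on the plot, lay 46 of 64 Apoe-high (71.9%), 24 of 75 middle (32.0%) and 13 of 64 Apoe-low divisions (20.3%). The share was larger in Apoe-high divisions in 9 of 9 experiments. The G1/S score moved likewise, 5.02 ± 0.79 against 6.48 ± 0.44, with 6.36 in the middle. Over 203 divisions, centred on the experiment, Apoe had a Pearson's r of -0.484 with the G2/M score and -0.411 with the G1/S score, and of -0.008 with log2 total counts. These describe divisions that share 9 experiments.

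**Figure D2:**
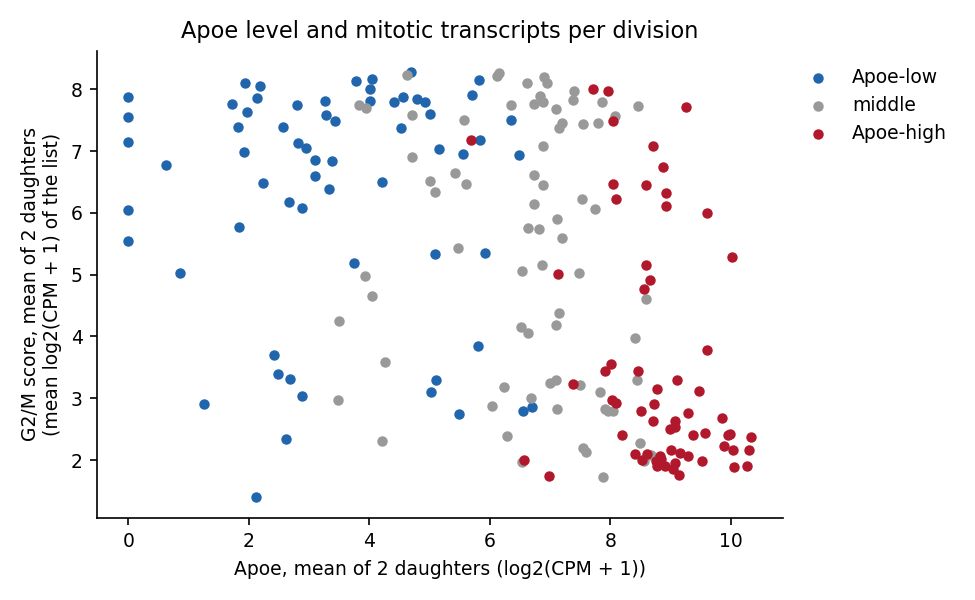
G2/M score (y axis, mean log2(CPM + 1) of the G2/M list over both daughters) against Apoe level (x axis, mean log2(CPM + 1) of both daughters), 1 point per division, Apoe-high in red, middle in grey and Apoe-low in blue. Most red points, 46 of 64, lie below a score of 4, where 13 of 64 blue points lie.

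Promoters of the G2/M genes share short sequence elements, and those of the G1/S genes share them in part. They are shown because the genes moved together. RefSeq windows of 250 bases before to 50 after the start (GRCm38.p6) were searched on both strands for TTTGAA, the core of the cell cycle homology region, for CCAAT, the box bound by NF-Y, and for CACGTG, the E-box inside the element bound by TFEB. No word holds another, and a match is a description of the letters only. TTTGAA lay in 33 of 46 G2/M promoters with a window (71.7%), against 18.2% of 27025 promoters of the same length, and CCAAT in 36 of 46 (78.3%) against 38.0%. Among 33 G1/S promoters, CCAAT was in 69.7% and TTTGAA in 15.2%. The windows of Cdc20 (chr4:118437294-118437593, minus strand) and Plk1 (chr7:122159185-122159484, plus strand) hold both words, and they are set beside that of Apoe (chr7:19699139-19699438, minus strand), which holds none of the 3. Capitals mark the words as read on either strand.
Cdc20: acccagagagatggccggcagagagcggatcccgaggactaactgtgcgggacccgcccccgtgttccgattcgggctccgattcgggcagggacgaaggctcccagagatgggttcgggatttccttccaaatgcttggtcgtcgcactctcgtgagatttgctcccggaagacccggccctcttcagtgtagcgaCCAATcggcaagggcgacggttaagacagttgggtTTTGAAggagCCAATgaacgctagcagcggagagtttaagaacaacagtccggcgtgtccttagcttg
Plk1: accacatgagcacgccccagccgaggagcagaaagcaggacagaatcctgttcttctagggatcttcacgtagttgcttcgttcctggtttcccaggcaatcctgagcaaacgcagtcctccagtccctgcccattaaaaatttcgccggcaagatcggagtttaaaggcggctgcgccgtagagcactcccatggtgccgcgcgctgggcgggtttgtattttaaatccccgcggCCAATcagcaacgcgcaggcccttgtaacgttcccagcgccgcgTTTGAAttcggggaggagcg
Apoe: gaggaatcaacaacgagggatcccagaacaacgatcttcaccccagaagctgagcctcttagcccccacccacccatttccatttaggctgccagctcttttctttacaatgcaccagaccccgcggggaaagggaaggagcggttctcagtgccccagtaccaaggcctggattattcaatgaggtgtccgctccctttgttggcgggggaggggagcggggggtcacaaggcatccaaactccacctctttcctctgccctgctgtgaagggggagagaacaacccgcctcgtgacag

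Regulators and surface proteins of HSCs were higher in Apoe-high divisions. Of 34 tested genes on an HSC identity list, 13 rose and 2 fell, beside 6.04% higher and 6.88% lower over all genes. The list's median was 0.55. The median was above 0 in 9 of 9 experiments, while the count of higher genes was 7 without experiment 68 or 77, 8 without 72 or 76 and 6 without 74. Hlf (ENSMUSG00000003949), a transcription factor gene largely restricted to HSCs among blood cells, stood at 429 to 1234 CPM (median 622) in Apoe-high and 104 to 300.2 CPM (median 179) in Apoe-low divisions. The 2 groups of 9 experiments did not overlap. Its difference was 1.81 ± 0.20 (SE), with an edgeR adjusted p of 0.00102. Procr, which encodes the endothelial protein C receptor used to sort HSCs, ranged over 47.8 to 245 CPM (median 144) against 2.99 to 62.8 CPM (median 37.4). It was higher in 9 of 9 experiments and the ranges met only at their ends. The difference was 2.37 ± 0.35 (edgeR adjusted p = 0.00304). Vwf, the von Willebrand factor gene that marks platelet-biased HSCs, stood at 35.6 to 315 CPM (median 178) against 6.48 to 90.8 CPM (median 22.6). It was higher in 8 of 9 experiments, with experiment 75 the other way, and the ranges overlapped. The difference was 2.53 ± 0.45 (edgeR adjusted p = 0.00606). Prdm16, a transcription factor needed to maintain HSCs, differed by 0.82 ± 0.11 and the surface antigen gene Ly6a, which encodes Sca-1, by 1.13 ± 0.19 (edgeR adjusted p = 0.00184 and 0.00473). The exchange factor gene Fgd5, used as an HSC reporter locus, differed by 1.85 ± 0.52 (edgeR adjusted p = 0.0349), a call lost without experiment 60, 68, 74, 76 or 77, at 0.0586 to 0.0732. Mecom, which encodes EVI1, was at 2056 ± 686 CPM in Apoe-high and 1059 ± 403 CPM in Apoe-low divisions and higher in 9 of 9 experiments. Its difference of 0.93 ± 0.27 passed (edgeR adjusted p = 0.0405), yet the adjusted p was 0.0519 to 0.0748 without experiment 60, 68, 72, 74, 75, 76 or 77. The 2 that fell were the transcription factor genes Gata2 (-0.64 ± 0.12) and Gfi1b (-1.20 ± 0.25), both also used by megakaryocyte and erythroid progenitors. Cd34 (0.37 ± 0.24, edgeR adjusted p = 0.336) and the identity gene Slamf1 (1.13, adjusted p = 0.536) did not pass.

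Lysosomal genes were higher in Apoe-high divisions. All 32 genes of a lysosome list were tested, with a median of 0.47. Of them 18 rose and 0 fell, beside 6.04% higher and 6.88% lower over all genes. Leaving out single experiments gave 16 to 18. Ctsd, the gene of the aspartic protease cathepsin D, stood at 317 to 667 CPM (median 475) in Apoe-high and 132 to 452 CPM (median 227) in Apoe-low divisions. It was higher in 9 of 9 experiments, with overlap between experiments. The difference was 0.95 ± 0.13 (edgeR adjusted p = 0.00214). Ctsl, which encodes the cysteine protease cathepsin L, ranged over 79.0 to 166 CPM (median 119) against 36.3 to 84.4 CPM (median 51.4). The ranges overlapped slightly, and it was higher in 9 of 9 experiments. The difference was 1.19 ± 0.12 (edgeR adjusted p = 0.000597). Among the others that rose were the progranulin gene Grn (0.56), the saposin precursor gene Psap (0.61), the peptidase gene Tpp1 (0.74), the membrane protein genes Lamp1 (0.43) and Lamp2 (0.48) and the lipase gene Lipa (0.65), with Lamp1 losing its call without experiment 77. Not past the threshold were the tetraspanin gene Cd63 (0.25, adjusted p = 0.147) and Tfeb, the transcription factor gene of the lysosomal programme (0.86, adjusted p = 0.119). CACGTG lay in 7 of the 26 lysosomal promoters with a window (26.9%), against 7.24% of all promoters, and in 3 of 46 G2/M promoters (6.52%). The windows of Ctsd (chr7:142387778-142388077, minus strand) and Ctsl (chr13:64370471-64370770, minus strand) carry it, in capitals.
Ctsd: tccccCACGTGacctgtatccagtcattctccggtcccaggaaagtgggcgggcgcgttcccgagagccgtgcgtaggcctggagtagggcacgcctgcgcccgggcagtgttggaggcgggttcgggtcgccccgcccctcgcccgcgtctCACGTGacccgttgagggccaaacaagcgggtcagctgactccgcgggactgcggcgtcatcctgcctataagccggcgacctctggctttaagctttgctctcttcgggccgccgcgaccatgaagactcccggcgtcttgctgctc
Ctsl: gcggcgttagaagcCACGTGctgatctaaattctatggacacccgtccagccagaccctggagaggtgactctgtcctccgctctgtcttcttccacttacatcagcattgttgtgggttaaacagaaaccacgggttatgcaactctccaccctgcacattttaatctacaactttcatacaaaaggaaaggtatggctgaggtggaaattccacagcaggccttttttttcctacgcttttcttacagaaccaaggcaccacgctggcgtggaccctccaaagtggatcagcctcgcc

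Of Apoe's own pathway, a few members passed the test. On a list of lipoprotein and cholesterol export genes, 15 were tested, 4 rose and 0 fell, beside 6.04% higher over all genes. The list's median was 0.39. Clu, which encodes clusterin, a secreted chaperone that is also an apolipoprotein (ApoJ), stood at 22.4 to 295 CPM (median 119) in Apoe-high and 12.7 to 48.4 CPM (median 26.3) in Apoe-low divisions. It was higher in 9 of 9 experiments, the ranges overlapped, and the difference was 1.87 ± 0.33 (edgeR adjusted p = 0.00542). The other 3 act inside cells on cholesterol freed from lipoproteins or stored as ester: the lysosomal carrier gene Npc2 (0.39 ± 0.09), the acid lipase gene Lipa (0.65 ± 0.15) and the ester hydrolase gene Nceh1 (0.48 ± 0.12). Npc2 and Lipa also stand on the lysosome list. The transporter genes that load ApoE did not pass: Abcg1 differed by 0.57 ± 0.33 (edgeR adjusted p = 0.265), and Abca1 had a count in 18.0% and 19.5% of cells and differed by -1.52 ± 1.02 (edgeR adjusted p = 0.351). Nr1h2, the gene of the oxysterol receptor LXR beta that switches Apoe on in other cells, was at 87.8 ± 15.2 CPM and 87.9 ± 21.6 CPM, a difference of -0.01 ± 0.13 (edgeR adjusted p = 0.959).

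Of 7 tested ApoE receptor genes, 0 passed the edgeR test and 2 had an unadjusted p under 0.05. DESeq2 called 0 and limma 1 lower, and 1 was higher in the fit over single divisions. Their median difference was 0.10. The differences of the 7 genes lay between -0.44 and 0.96. Lrp1, a receptor gene of the same list, was too low to be tested, with a count in 14.8% of cells of Apoe-high and 9.38% of cells of Apoe-low divisions. In cholesterol synthesis, 24 genes were tested, 2 rose and 1 fell, near the 12.9% called in either direction over all genes. The list's median was 0.13. Lss, which encodes lanosterol synthase, rose by 0.56 ± 0.12 and Insig1, a brake on sterol synthesis, by 0.45 ± 0.11, while the sterol isomerase gene Ebp fell (-0.49 ± 0.14). The call of Ebp was lost, at adjusted p of 0.0513 to 0.0962, when any experiment but 75 was left out. Insig1 lost its call without experiment 68, 74 or 77, at adjusted p of 0.0506 to 0.062. The counts in this list moved with the method: DESeq2 put 6 higher, edgeR over divisions 5 and limma 0.

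Genes around Apoe on chromosome 7 passed at about the share over all genes, with Bcam higher and Tomm40 lower in Apoe-high divisions. Within 100 kb lie 15 annotated genes, of which 6 could be tested, and on a wider list of neighbours 12 were tested, 1 rose and 1 fell, beside 12.9% called in either direction over all genes, with a median of -0.03. Tomm40, which lies next to Apoe and encodes the import pore of mitochondria, was at 105 ± 32.5 CPM in Apoe-high and 155 ± 35.5 CPM in Apoe-low divisions. It fell by 0.63 ± 0.19 (edgeR adjusted p = 0.0451), a call that was lost, at adjusted p of 0.0543 to 0.0914, when any experiment but 60 was left out. Bcam, a cell adhesion gene, rose by 1.91 ± 0.50 (edgeR adjusted p = 0.027) from a low level, 10.1 ± 7.0 CPM against 3.51 ± 3.71 CPM, and lost its call without experiment 68, 72, 75 or 77, at 0.0532 to 0.0671. Clptm1 (-0.07 ± 0.07), Clasrp (0.20 ± 0.26) and the NF-kappaB subunit gene Relb (0.71 ± 0.51) did not pass. Apoc1, Apoc2 and Apoc4, the neighbouring apolipoprotein genes, had no count in the tables for any listed cell, and nothing is read from that.

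Genes outside these lists also stood among the 12 with the smallest p on the higher side. Neat1, a nuclear long non-coding RNA that builds paraspeckles, stood at 257 to 881 CPM (median 481) in Apoe-high and 130.0 to 278 CPM (median 194) in Apoe-low divisions. It was higher in 9 of 9 experiments with a small overlap of the ranges, and the difference was 1.33 ± 0.12 (edgeR adjusted p = 0.000597). Gdf15, the gene of a secreted stress cytokine, ranged over 34.3 to 176 CPM (median 68.1) against 4.27 to 27.2 CPM (median 12.6). The groups did not overlap. Its difference was 2.60 ± 0.27 (edgeR adjusted p = 0.000785). Hmox1, which encodes haem oxygenase 1, stood at 52.8 to 337 CPM (median 148) against 7.44 to 114 CPM (median 39.6), higher in 9 of 9 experiments with overlapping ranges. The difference was 2.18 ± 0.26 (edgeR adjusted p = 0.00125). St8sia4, the gene of a polysialic acid synthase, differed by 1.39 ± 0.13, the focal adhesion kinase relative Ptk2b by 0.82 ± 0.09 and the sorting nexin gene Snx29 by 1.03 ± 0.11. Also among the 12 were the annexin gene Anxa5 (0.73 ± 0.09), the calmodulin-dependent kinase gene Camk1 (1.06 ± 0.13) and the lipid droplet coat gene Plin3 (0.98 ± 0.12), besides Ctsl and Hlf. All 12 were higher in 9 of 9 experiments and stayed past the threshold whichever experiment was left out. They were picked by p over the same experiments, so this follows in part from the choice.

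On the lower side the 12 included, besides Lmnb2, Cks2, Cdk6, Kpna2, Cdc20 and Rad50, the mitotic membrane gene Reep4 (-1.44 ± 0.17), the nucleotidase family gene Nt5dc2 (-1.67 ± 0.22), the gene Miip (-1.36 ± 0.19), the GTPase gene Gpn3 (-0.99 ± 0.13), the sphingomyelinase gene Smpd4 (-0.86 ± 0.11) and the glycoprotein folding gene Mlec (-0.60 ± 0.08). All were lower in 9 of 9 experiments, and these too were picked by p over those experiments. Smart-seq2 does not mark the strand, and exons of Cdc20 overlap those of Elovl1 on the other strand, those of Gpn3 overlap Fam216a and those of Camk1 overlap Ogg1, so reads of such pairs cannot be told apart.

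**Figure D3:**
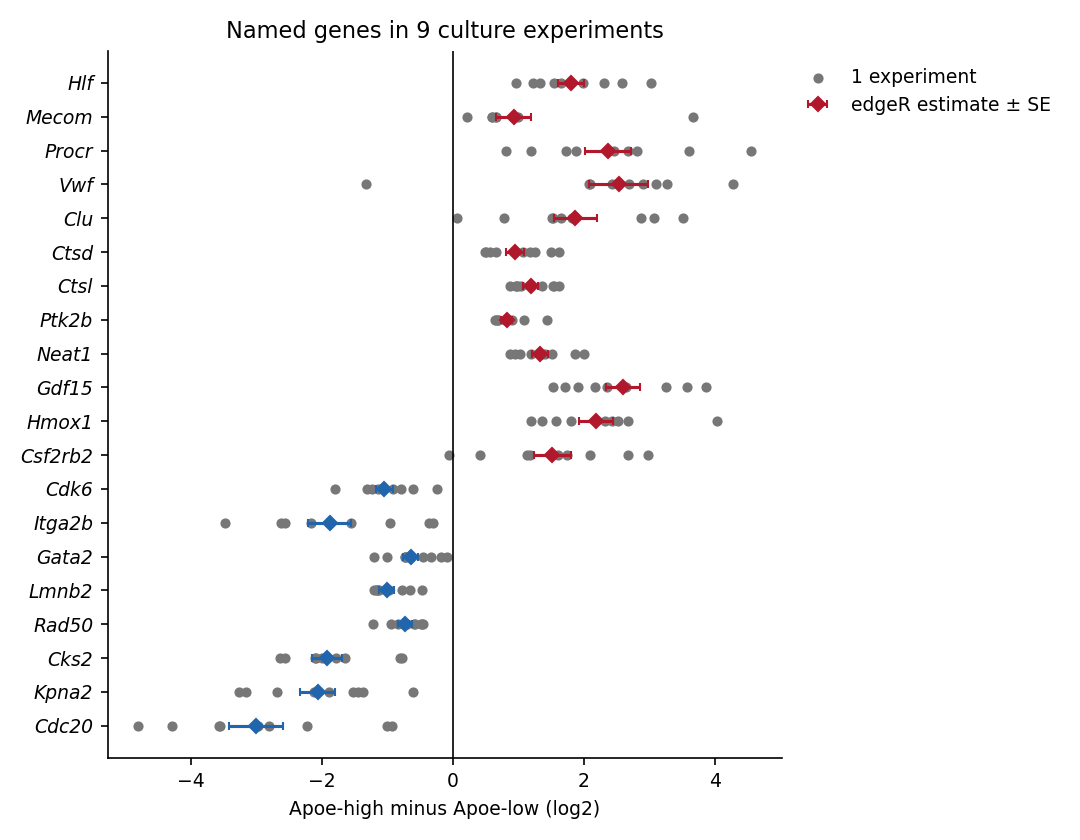
Difference between Apoe-high and Apoe-low divisions (x axis, log2 scale) for 20 named genes (y axis). Grey points are the 9 experiments, as log2(CPM + 1) of the Apoe-high sum minus that of the Apoe-low sum, and diamonds are edgeR estimates with SE, red where higher and blue where lower in Apoe-high divisions. For Hlf, Ctsd and Cdc20 all 9 experiments lie on 1 side of 0, and for Vwf 1 experiment lies on the other side.

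Receptor and signalling genes gave a mixed picture. Of 12 tested genes for common beta chain cytokine receptors and their STAT5 relay, 2 rose and 0 fell, with a median of 0.34. Over all genes 6.04% were higher and 6.88% lower, the shares to set beside each list here. Csf2rb2, a mouse gene for an interleukin 3 receptor chain, stood at 49.9 to 453 CPM (median 184) against 30.5 to 109 CPM (median 56.6). It was higher in 8 of 9 experiments and differed by 1.52 ± 0.28 (edgeR adjusted p = 0.00715). Its near copy Csf2rb differed by 0.28 ± 0.23 (edgeR adjusted p = 0.454), and counting could have split reads between them. Kit, the stem cell factor receptor gene, rose from 876 ± 193 CPM to 1201 ± 219 CPM, a difference of 0.43 ± 0.11 (edgeR adjusted p = 0.026), which was lost, at adjusted p of 0.0541 to 0.0688, without experiment 72 or 76. Quiescence genes and CDK inhibitors included 4 that rose and 1 that fell of 16, with a median of 0.34, though 1 to 2 rose when experiment 68, 69, 73, 74, 75, 76 or 77 was left out. The transcription factor gene Foxo1 rose by 0.69 ± 0.16 and the inhibitor gene Cdkn2c fell (-1.22 ± 0.29), while Cdkn1c, the inhibitor most tied to HSC quiescence, differed by 1.05 ± 0.39 (edgeR adjusted p = 0.0892). On an interferon list, 10 of 25 rose and 0 fell, with a median of 0.52 and 6 higher without experiment 77. They included the RNA sensor gene Ddx58 (0.92 ± 0.14), Rtp4 (1.66 ± 0.29) and the GTPase gene Gbp2 (0.99 ± 0.20), but not Isg15 (-0.66, adjusted p = 0.478). Among galectins, annexins and S100 genes, 6 of 15 rose and 2 fell. Lgals1, a galectin gene, was at 204 ± 89.4 CPM against 44.2 ± 32.5 CPM, a difference of 2.65 ± 0.66 (edgeR adjusted p = 0.0216) that lay at an adjusted p of 0.0501 without experiment 76, and the intermediate filament gene Vim differed by 0.77 ± 0.13.

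Genes for ribosome biogenesis and oxidative phosphorylation mostly lay lower in Apoe-high divisions, while most members of these lists did not pass the edgeR threshold. Above 0 were 0 of 32 ribosome biogenesis, 1 of 26 oxidative phosphorylation and 0 of 37 ribosomal protein genes, against 5929 of 11911 genes tested. Of these lists 27, 18 and 20 genes had an unadjusted p under 0.05, against 30.1% of all genes. DESeq2 put 19, 13 and 8 lower, and limma 21, 8 and 6. Of 32 tested genes for ribosome biogenesis, 12 fell and 0 rose, beside 6.88% lower over all genes, with a median of -0.47 and 7 lower without experiment 68. Ncl, which encodes nucleolin, was at 976 ± 225 CPM against 1512 ± 267 CPM, a difference of -0.68 ± 0.13 (edgeR adjusted p = 0.00747), and the nuclear transport gene Ran differed by -0.83 ± 0.16. For oxidative phosphorylation, 11 of 26 fell and 0 rose, with a median of -0.30. The number was 3 without experiment 76, 5 without 77, 6 without 68, 72 or 74 and 7 without 69. Cox5b, a subunit gene of cytochrome c oxidase, differed by -0.43 ± 0.10. Ribosomal protein genes had 7 of 37 lower, with a median of -0.19, or 2 to 4 without experiment 68, 69, 74, 76 or 77. Heat shock and chaperone genes had 5 of 15 lower, with a median of -0.20, or 3 without experiment 68, 72, 76 or 77. Hsp90aa1, a chaperone gene, differed by -0.65 ± 0.12. The transcription factor gene Myc was at 173 ± 114 CPM and 213 ± 56.1 CPM and did not pass (-0.53 ± 0.31, edgeR adjusted p = 0.283). Of 8 mitochondrially encoded genes 0 passed by edgeR, DESeq2 or limma and 1 had an unadjusted p under 0.05, with a median of -0.11.

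Among genes used as markers of other lineages, Itga2b was lower and 5 macrophage genes were higher in Apoe-high divisions, and the megakaryocyte list was mixed. Itga2b, the platelet integrin gene CD41, stood at 5.23 to 45.2 CPM (median 15.5) in Apoe-high and 18.3 to 517 CPM (median 59.0) in Apoe-low divisions. It was lower in 9 of 9 experiments with overlap, and the difference was -1.88 ± 0.33 (edgeR adjusted p = 0.00542). The platelet chemokine gene Pf4 differed by -1.15 ± 0.53 and did not pass (edgeR adjusted p = 0.163). The summed level of 6 megakaryocyte markers was 28.6 to 88.2 CPM (median 43.2) in Apoe-high and 48.5 to 743 CPM (median 107.9) in Apoe-low divisions and was lower in Apoe-high divisions in 9 of 9 experiments. In the highest of these sums, 743 CPM in experiment 69, Itga2b gave 517 and Pf4 167 CPM, while Gp1ba, another of the 6, had a count in 35.9% of cells of both groups. The wider lists that follow stand beside 6.04% higher and 6.88% lower over all genes. On the wider list of megakaryocyte and platelet genes, 16 were tested, 3 rose, Vwf among them, and Itga2b alone fell, with a median of 0.19. The number that rose was 1 without experiment 68, 69, 72, 74 or 77 and 2 without 73, 75 or 76, and DESeq2 put 3 higher and 3 lower. On a wider list of macrophage genes, 8 of 19 could be tested, and 5 rose: Hmox1, the iron exporter gene Slc40a1 (1.51 ± 0.19), the receptor kinase genes Axl (2.31 ± 0.30) and Mertk (5.07 ± 0.97), which serve uptake of dead cells, and the galectin gene Lgals3 (2.75 ± 0.71), which lost its call without experiment 68, 74 or 77 (adjusted p of 0.0601 to 0.063). Of 5 defining macrophage markers, C1qa was at 0, and C1qb had a count in 0.781% of cells of Apoe-high divisions. Their summed level was 4.98 to 144 CPM (median 42.4) against 5.38 to 37.5 CPM (median 18.4), most of it Cd68, which did not pass (1.30 ± 0.49, edgeR adjusted p = 0.0928). The 8 HSC markers summed to 3034 to 6105 CPM (median 4841) against 1305 to 2954 CPM (median 2758), and these ranges did not overlap. Every HSC marker had counts in both groups. Erythroid markers summed to medians of 7.54 and 6.40 CPM, lymphoid markers to 13.8 and 15.7 CPM, with Cd3e, Il7r and Rag1 at 0, and stromal and endothelial markers to 6.07 and 5.14 CPM, with Col1a1 at 0. On the wider lists edgeR called 0 of 7 erythroid, 0 of 5 myeloid and 0 of 4 stromal or endothelial genes, with 4, 2 and 0 at an unadjusted p under 0.05. DESeq2 called 1 erythroid and 2 myeloid genes, and limma 2 and 1. Of 3 lymphoid genes edgeR called 1 higher, or 0 to 1 when single experiments were left out. Of 3 mast cell and basophil genes it called 1 lower. DESeq2 and limma each gave 1 higher lymphoid gene and put 1 mast cell or basophil gene on each side. The part of these cell types in the results was not tested.

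**Figure D4:**
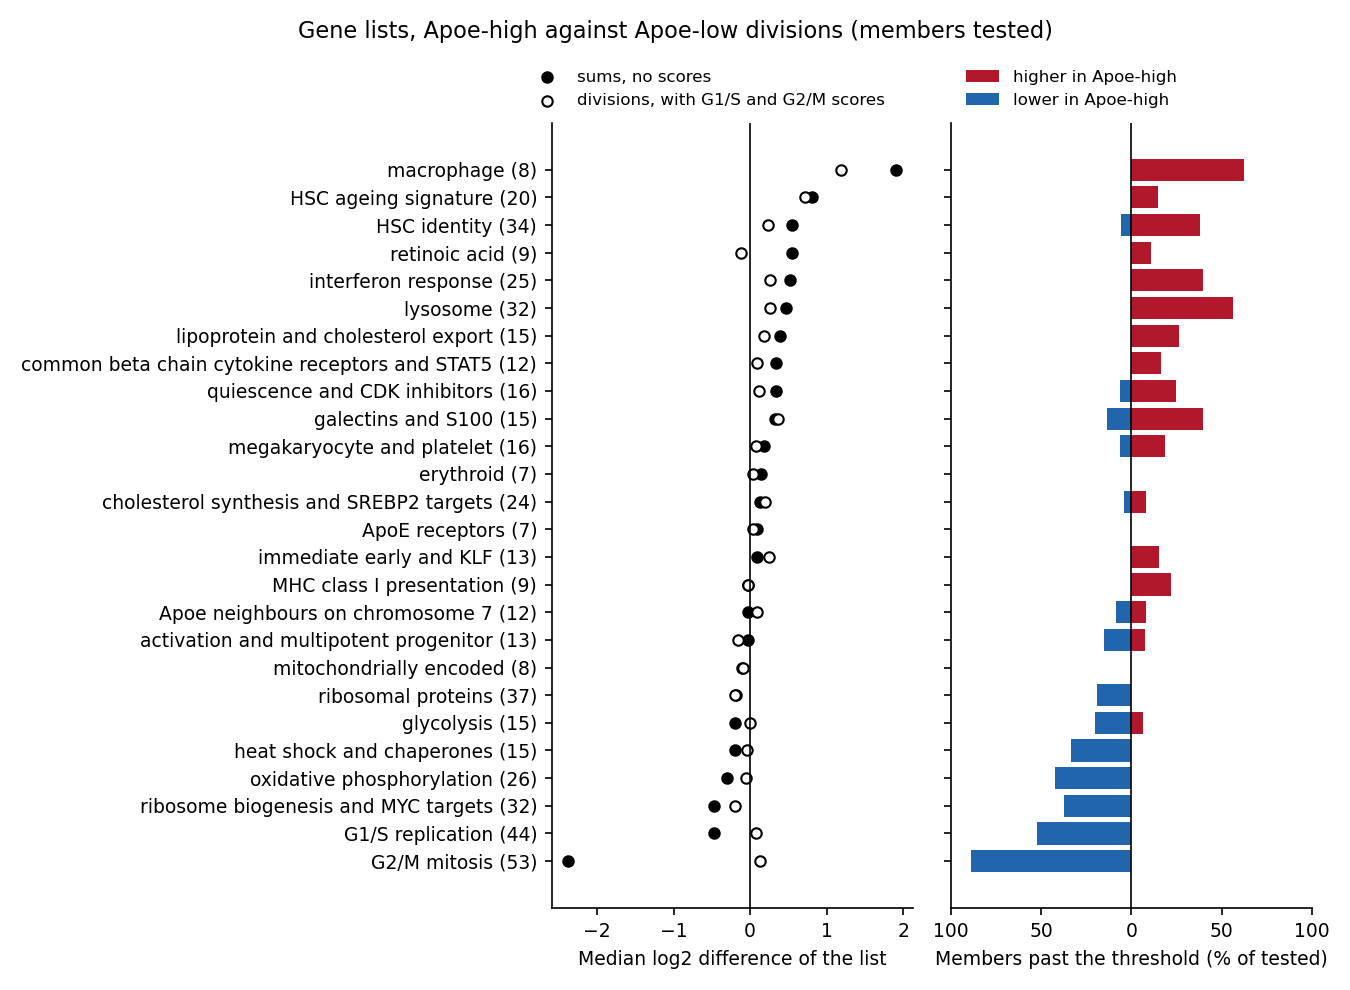
Gene lists with at least 7 tested members (y axis, members tested in brackets). Left, median log2 difference of Apoe-high minus Apoe-low divisions from sums (filled) and from single divisions with G1/S and G2/M scores in the fit (open). Right, percent of tested members higher (red) or lower (blue) past an edgeR adjusted p of 0.05 from sums. The G2/M list has the lowest filled point, at -2.38, and its open point lies near 0, at 0.13, while the lysosome list lies at 0.47 and 0.26.

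Since cell cycle scores moved with Apoe, the comparison was repeated over single divisions with both scores as covariates. Without the scores, 2039 of 9586 genes passed over divisions (21.3%). With them 38 passed (0.396%), 26 higher (0.271%) and 12 lower (0.125%), and 944 genes (9.85%) had an unadjusted p under 0.05. Divisions of an experiment are not independent, so these p-values are too small as measures of the spread between experiments. No gene of the G2/M list passed with the scores in the fit, and the list's median was 0.13. The G2/M score is the mean of that list, so this holds by construction in part. Ctsd had the smallest p, at 0.75 ± 0.12 against 0.91 without the scores (edgeR adjusted p = 0.000153). The 3 other lysosomal list genes that passed were all higher and included Psap at 0.44 and Laptm5 at 0.30. The list's median was 0.26, and that of ribosomal protein genes -0.19, against 0.02 over all genes. Cdk6 remained lower at -1.03 ± 0.20 against -0.94 without the scores (edgeR adjusted p = 0.00716). Of the HSC identity list, Vwf at 2.72 ± 0.58 and Hlf at 0.88 ± 0.21 passed, the latter from 1.60 without the scores. The transcription factor gene Klf6 (1.06), Anxa5 (0.48), Ptk2b (0.56) and Mlec (-0.36) also passed. Procr (1.0, edgeR adjusted p = 0.206), Clu (2.07, 0.102), Ctsl (0.60, 0.243) and Neat1 (0.22, 0.795) did not.

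**Figure D5:**
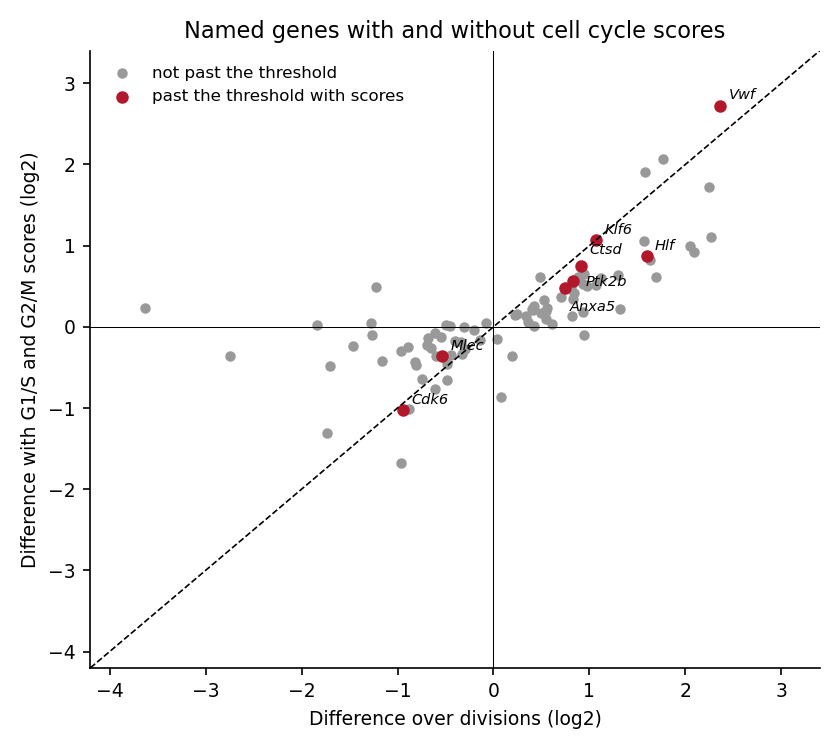
Difference between Apoe-high and Apoe-low divisions over single divisions (x axis, log2) against the same with G1/S and G2/M scores as covariates (y axis, log2) for 87 named genes. Red points, 8 genes, passed an edgeR adjusted p of 0.05 with the scores, grey points did not, and the dashed line marks equality. Vwf, Klf6 and Cdk6 lie close to the line or beyond it, and Hlf lies below it.

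A pair of added comparisons, chosen after the scores were seen to move with Apoe, treated the cell cycle differently. Within the divisions in the lower part of the G2/M range of each experiment, split at the median, 52 of 11686 genes passed on sums (0.445%), 28 higher and 24 lower in the Apoe-richer ones. The higher ones included Clu at 2.57, Vwf at 2.46, Procr at 1.56 and Ctsl at 1.04 (edgeR adjusted p = 0.0414, 0.0195, 0.0462 and 0.0195). Nasp was among the lower ones, at -0.85 (edgeR adjusted p = 0.0414). The G1/S list had a median of -0.81 with 0 of 44 above 0, against -0.48 with 4 of 44 above 0 in the main comparison. The G2/M score still differed there, 2.83 ± 0.86 against 3.88 ± 1.11, and so did the G1/S score, 4.68 ± 0.87 against 6.12 ± 0.97. When divisions were ranked by Apoe after regression on both scores, 0 of 11982 genes passed (edgeR, smallest adjusted p = 0.102), and 1590 (13.3%) had an unadjusted p under 0.05. It called 6 genes without experiment 60 and 1 without experiment 75. The tertiles so formed had G2/M scores of 5.48 ± 0.72 and 5.69 ± 1.49. Of genes that passed with the scores as covariates, Klf6 was then at 0.28, Anxa5 at 0.35, Ptk2b at 0.54 and Mlec at -0.31. The lysosome list then had a median of 0.25 with 27 of 32 genes above 0, and the HSC identity list 0.25 with 28 of 34 above 0, against 51.7% of all genes. Some lists that were lower kept their side too. Ribosomal protein genes had a median of -0.26 with 0 of 37 above 0. Ribosome biogenesis had -0.25 with 0 of 32, and oxidative phosphorylation -0.21 with 0 of 26. The G1/S list did not keep its side, with a median of 0.10 and 34 of 44 genes above 0. The G2/M list lay at -0.05 with 25 of 53 above 0. Scores made from these lists were regressed out, so this holds by construction in part.

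Divisions were also ranked by Apoe in 1 daughter, and the genes were read in its sister. Ranked by the daughter with more lysosomes and read in the other, 54 of 10939 genes passed on sums (0.494%), 44 higher (0.402%) and 10 lower (0.0914%). Ranked by the daughter with fewer lysosomes and read in the other, 364 of 10883 passed (3.34%), 180 higher (1.65%) and 184 lower (1.69%). The difference between these 2 readings was not tested. Both readings called Hlf (1.42 and 1.58), Ctsl (1.09 and 1.16), Ctsd (0.80 and 0.92), Vwf (3.0 and 2.13), Neat1 (1.37 and 1.13) and Hmox1 (2.14 and 1.77). On the G2/M list the first reading called 0 of 53, with a median of -0.91, and the second 35 lower, with a median of -2.27. Lysosomal genes had 4 and 8 of 32 higher, with medians of 0.41 and 0.38. The cells read here did not enter the ranking with their own Apoe. Their sisters did, in the same divisions, and sisters had a Pearson's r of 0.690 in Apoe. These readings are therefore not independent of the main comparison.

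The 2 sequencing runs share no experiments and were compared with each other. Run 4, with 5 experiments and 136 divisions, called 455 of 12267 genes (3.71%). Run 5, with 4 experiments and 67 divisions, called 0 of 11733 by edgeR, with 1639 (14.0%) at an unadjusted p under 0.05. Of 452 genes called in run 4 and tested in run 5, 98.5% had the same direction there, against 71.3% of all 11557 genes tested in both. Differences in runs 4 and 5 were 1.57 and 2.16 for Hlf, 0.83 and 1.15 for Ctsd, 2.75 and 2.36 for Vwf, -1.03 and -1.02 for Cdk6 and -2.86 and -3.17 for Cdc20. Cells without a sequenced sister, which the ranking of divisions did not use, were few. Split into an Apoe-richer and an Apoe-poorer part in each of 7 experiments, 64 such cells gave 0 of 10158 genes past the edgeR threshold and 787 (7.75%) at an unadjusted p under 0.05. Of 1487 genes called in the divisions and tested there, 87.7% had the same direction, against 65.8% of all 10155 tested in both. Their differences were 1.44 for Neat1, 1.59 for Clu, 1.22 for Vwf, 0.93 for Ctsl, -1.41 for Cdc20 and -0.98 for Cdk6, and none of these passed. Ribosomal protein genes were not lower in these cells, with a median of 0.014 and 22 of 37 above 0. Oxidative phosphorylation had -0.07 with 8 of 26 above 0, and ribosome biogenesis -0.20 with 3 of 32. Lysosomal genes had 0.37 with 27 of 32 above 0 and the HSC identity list 0.39 with 25 of 33, against 5073 of 10158 genes.

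Between the daughters of a division, the difference in Apoe by lysosome label did not pass its test. Over 203 divisions the daughter with more lysosomes had 0.22 ± 0.36 more Apoe on the log2(CPM + 1) scale (SD, n = 9 experiments), higher in 6 of 9, with an exact sign-flip permutation p of 0.109, two-sided. The mean CPM went the other way, 227 CPM in the daughter with more and 252 CPM in the daughter with fewer lysosomes. With a pseudocount of 10 CPM the difference was 0.07. It was -0.18 ± 0.59 within Apoe-high divisions, where mean levels were 525 CPM in the daughter with more and 616 CPM in the daughter with fewer lysosomes, and 0.84 ± 1.54 within Apoe-low divisions, at 29.8 and 22.0 CPM. The daughter with more lysosomes had the higher Apoe level in 35 of 64 Apoe-high and 34 of 64 Apoe-low divisions. In 5 of these Apoe-low divisions neither daughter had a count, so neither could be higher.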

How the data were processed

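The data are single-cell RNA counts of 474 HSC daughters in 2 deposited tables of 55542 features, 92 of them spike-ins, with metadata tables that give each cell's division, experiment and lysosome label. Counts were made by the authors with featureCounts of Subread 1.5.0 and SAMtools, per the submitters' processing notes; no aligner or annotation is named by those sources. The method behind the lysosome label is described in the labels only as inheritance seen by imaging, and 171 deposited count columns of no listed sample were not used. All 55450 gene identifiers were found in GENCODE M21 (GRCm38), which gave names and coordinates.

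Sisters were joined by movie, experiment, position and colony. Counts were summed per experiment and tertile, Apoe was removed from the tested genes, and the sums were fitted with edgeR 4.0.16 (quasi-likelihood, TMM, filterByExpr, experiment as block) in R 4.3.3 with Benjamini-Hochberg adjustment at 0.05. Differences are Apoe-high minus Apoe-low on the log2 scale, and levels are the CPM of the sums. Library measures were compared with exact sign-flip permutation tests over the 9 experiments, for which the smallest p is 0.0039. Cells needed at least 50000 counts and 1000 detected genes, and all 474 passed. Tertiles pair within an experiment by construction.

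The text names the 12 genes of smallest p on each side, up to 2 members of each list, the genes within 100 kb of Apoe and a set list of genes of interest. Some genes that fall under these rules are not reported here. Other list members given with their difference alone were chosen after their values were seen. The divisions, gene lists and rules were chosen with earlier results of these data known. Alternatives used DESeq2 1.42.0, limma 3.58.1 on mean log2(CPM + 1), fits over single divisions, other splits and rankings, single runs and leaving out each experiment. On simulated counts for this comparison (11501 genes) the main test recovered 60.2% of genes changed 2-fold and 88.7% of those changed 4-fold, and called 0.0796% of unchanged genes. Reads carry no molecular identifiers, and near copies such as H2 genes or ribosomal protein genes may share reads.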

Additional observations from a re-analysis of the deposited data

Results flagged for a closer look

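Of 103 results looked at over the 9 experiments, 8 had 1 experiment standing apart from the other 8 by Dixon's criterion, which flags about 1 in 20 by chance. Values are Apoe-high minus Apoe-low on the log2 scale unless stated.

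Among HSC genes, Vwf was at -1.33 in experiment 75, where the nearest other experiment was at 2.08, so a single experiment went against its higher level in Apoe-high divisions. Mecom was at 3.67 in experiment 69 against 1.0 in the next. Emcn, which encodes a sialomucin of endothelium and HSCs, was at 4.68 in experiment 69 against 1.45.

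In experiment 72, the myeloid and HSC transcription factor gene Spi1 was at 1.34 against 0.83 in the next, Tfr2, a transferrin receptor gene, at 1.60 against -0.21, and the cytochrome c gene Cycs at -1.88 against -0.95. That experiment had 3 divisions in each tertile.

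For the library measures, the mitochondrial share of counts was higher by 1.33 percentage points in Apoe-high divisions of experiment 69, against 0.44 in the next. The spike-in share was higher by 4.11 percentage points in experiment 73, against 0.58.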

How the results depend on the processing

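Limits: the number of animals behind the 9 experiments is not given, so the p-values measure the spread between experiments. Lrp1 and other genes below the count filter were not tested, and counts without molecular identifiers carry amplification error. Apoe itself ranks the divisions, with neither daughter's Apoe at a count in 5 divisions. The cell cycle scores moved with Apoe, and the part of the cell cycle in each gene's difference cannot be told apart from Apoe by these divisions alone.

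Of the 67 named genes past the threshold, 58 kept their direction under every alternative run. DESeq2's size factors (1543 genes called), no filter on low counts (1365), splits into 2 parts (1308) or by outer 25% (1437), ranking by pooled Apoe (1516), single divisions (2039), those with depth as covariate (1614) and limma (2136, 1375 of them lower) stayed within 1.5 times the 1538 called. Pairing by experiment is part of the main design; with no replicate block 1069 were called, 515 lower. DESeq2 called 2625, 1373 higher and 1252 lower. Smaller counts, as either, higher and lower, came from run 4 (455, 228, 227), run 5 (0, 0, 0), ranking by the daughter with more (54, 44, 10) or fewer lysosomes (364, 180, 184), cell cycle scores (38, 26, 12), their squares added (39, 27, 12), Apoe regressed on them (0, 0, 0) and the divisions of lower G2/M score (52, 28, 24). The cause of these moves was not tested. Leaving out 1 experiment gave 863 to 1597 genes, 450 to 740 higher and 413 to 857 lower.

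Single values changed sign as follows, on the log2 scale. With cell cycle scores over divisions, Reep4 0.048, Kpna2 0.025, Tomm40 0.0051, Cdkn2c 0.50, Hspa8 0.017, Rarg -0.096, Csf2rb -0.36, Cd74 -0.86, Plk1 0.23, Clptm1 0.051. With their squares added, Reep4 0.088, Kpna2 0.048, Cdkn2c 0.39, Hspa8 0.022, Rarg -0.17, Csf2rb -0.35, Cd74 -0.99, Plk1 0.10, Clptm1 0.031. With Apoe regressed on the scores, Cd79b -0.097, Blm 0.10, Cdkn2c 0.20, Rarg -0.087, Csf2rb -0.027. Among divisions of lower G2/M score, Notch1 -0.12, H2-DMb1 -0.091, Abcg1 -0.22, Nr1h2 0.064, Cd74 -0.48, Clasrp -0.019, Relb -0.17, Clptm1 0.14. Ranked by the daughter with more lysosomes, Cd79b -0.014, H2-DMb1 -0.18, Nr1h2 0.019, Relb -0.063, Clptm1 0.0075. Ranked by the daughter with fewer lysosomes, Pf4 0.047, Cd74 -0.62, Clasrp -0.12. Cd79b was at -0.037 by limma, and run 5 put H2-Ab1 at 0.089, Nr1h2 at 0.18 and Clptm1 at 0.037, while run 4 put Nectin2 at 0.94. Nr1h2, at -0.01 in the main fit, was at 0.0052 with DESeq2's size factors, 0.0057 in DESeq2, 0.041 over divisions, 0.098 by pooled Apoe and -0.087 to 0.085 when single experiments were left out. Cd74 was at -0.40 with no replicate block and -0.041 with depth as covariate. By outer 25% the difference in log2 total counts was 0.035 and that in mitochondrial share -0.065 percentage points, and Apoe in the daughter with more lysosomes was -0.18 within Apoe-high divisions. Leaving out 1 experiment, the difference in detected genes was -489.9 to -322 and that in spike-in share 0.079 to 0.62 percentage points, both past the threshold without experiment 60.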

Other observations

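Among the 38 genes past the threshold with cell cycle scores in the fit were several outside the lists, picked here after their values were seen. Higher in Apoe-high divisions were Clcn7, the lysosomal chloride exchanger gene, by 0.92 ± 0.22, Atp6v1b2, a subunit gene of the proton pump that acidifies lysosomes, by 0.59 ± 0.14, Pld3, which encodes a lysosomal nuclease, by 0.84 ± 0.21, and Vps29, a retromer subunit gene, by 0.45 ± 0.10 (SE, log2 scale). Vps29 did not pass in the sums without scores (0.20, edgeR adjusted p = 0.238), and Clcn7 lost its call there without experiment 68, 69, 74 or 75. Ranked by Apoe regressed on the scores, Vps29 was at 0.04, Atp6v1b2 at 0.15, Clcn7 at 0.36 and Pld3 at 0.42. Eng, which encodes endoglin, was higher by 0.50 ± 0.12 and Fgfr1, a fibroblast growth factor receptor gene, by 1.01 ± 0.25. Lower ones included the transcription factor gene Runx3 (-1.42 ± 0.32), Hemgn, a nuclear protein gene of blood progenitors (-1.95 ± 0.47), and Cd244a, a SLAM family receptor gene that is low in the most primitive HSCs (-2.27 ± 0.53). Of these genes, Eng passed among divisions of lower G2/M score and the others did not. These are single division fits, and none of the 38 was tested in other cells with the scores.

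Other lists changed in a few members, beside 6.04% higher and 6.88% lower over all genes. On the HSC ageing list, 3 of 20 rose, Clu, Vwf and Wwtr1 (0.97 ± 0.20), and the median was 0.81. Clu and Vwf were also counted on lists above. Of 13 immediate early and Krüppel-like factor genes, Klf6 (0.88 ± 0.16) and Jun (1.59 ± 0.45) rose, Jun overlapping the antisense gene Junos and losing its call without experiment 68, 69, 74, 76 or 77. In glycolysis, 3 of 15 fell and 1 rose, Eno1 (-0.38 ± 0.11) and Pfkl (-0.42 ± 0.11) among those that fell, each lost in 4 or 5 of the 9 fits that left out 1 experiment. The number that fell was 0 without experiment 76, 1 without 68, 72, 74 or 77 and 2 without 69 or 75. The gene that rose, Aldoa (0.22 ± 0.07), lost its call in all 9 of these fits, at adjusted p of 0.0515 to 0.115. Of 9 genes for class I antigen presentation Tapbp (0.42 ± 0.11) and H2-K1 (0.34 ± 0.10) rose, with calls lost in 3 and 8 of those fits. Of 6 class II genes 0 passed by edgeR, DESeq2 or limma, and 1 had an unadjusted p under 0.05. The retinoic acid receptor gene Rarg rose by 0.89 ± 0.26, lost in 6 of those fits, while Aldh1a1, which makes retinoic acid, did not pass (-0.64 ± 0.24, edgeR adjusted p = 0.0913).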
